A study of Brassica napus with 6 samples.

Results

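Long genes were examined in cotyledon RNA of Brassica napus (oilseed rape, an allotetraploid with chromosomes of an A and of a C subgenome). They were taken as the genes whose annotated span, from gene start to gene end, is at least 10000 bp and whose mean level over the 6 libraries is at least 1 CPM (a gene's count divided by the library's total count, times 1000000). Of the 100919 genes in the tables, 1458 had such a span and 699 of these reached the level. Cotyledons of the wild type (WT, 3 libraries) were compared with those of a bnsdp1 mutant (line bnsdp1#CR88 in the design text, labelled only as mutant, 3 libraries). SDP1 is a triacylglycerol lipase of oil mobilisation in seedlings, and the design asks what disturbed lipid metabolism does to cotyledon expression. All seedlings of both genotypes stood on 1/2 MS medium with 1% sucrose, 4 days in darkness followed by 6 h in normal conditions. The mutant is 1 line, the labels give no further allele, and the labels do not state that each replicate had its own seedlings. The p-values therefore measure only how far these libraries spread, which could be technical. In bulk RNA, fewer cells of a type and less RNA per cell cannot be told apart. As the files give no gene names, the cotyledon label was not checked against marker genes.

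A gene's span holds its exons and introns. Introns are copied into RNA and then removed, so poly(A) RNA, which was sequenced here, is mostly exon sequence and the RNA of a long gene may be much shorter than its span. Plant introns are mostly short; very long genes usually carry many introns or introns enlarged by transposable elements, and the C subgenome of B. napus is the larger and the richer in such elements. In these tables the stated length equalled the full distance from start to end in 100% of rows, so counts were made over whole spans and can include reads from introns, and a level per kb is a level per kb of span, not of RNA.

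The libraries held 48288744 to 65550668 counts, of which 762027 to 927658 fell in the long genes. A long gene had a median of 534 reads in a library, so that counting error is small for most. Across the long genes, Pearson's r was 0.975 to 0.992 within a genotype and 0.879 to 0.907 between genotypes (log2 CPM with 0.5 added, over 699 genes, which are not independent). No pair of libraries of a genotype agreed within sampling noise: the lowest chi-square per degree of freedom was 7.63.

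Long spans reached the minimum level less often than genes of 2000 to 4000 bp and more often than genes under 2000 bp. A mean of at least 1 CPM was reached by 47.9% of the 1458 genes of at least 10000 bp, by 60.7% of the 23849 genes of 2000 to 4000 bp and by 43.0% of all genes. It was reached by 46.8% of genes of 1000 to under 2000 bp, by 30.5% of those of 500 to under 1000 bp and by 13.7% of those below. Among the long spans the share was 44.7% under 12000 bp and 61.3% at 30000 bp and above. On A chromosomes 56.7% of 522 long spans reached it, and on C chromosomes 43.3% of 926. Of the 759 long spans below 1 CPM, 191 had no read in any library, and 69.2% lay on C chromosomes. Long genes made up 1.61% of the 43418 genes with at least 1 CPM.

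Spans ran from 10005 to 144485 bp, with a median of 13558 bp and a middle range (25th to 75th percentile) of 11404 to 18372.5 bp. There were 234 under 12000 bp and 65 of 30000 bp or longer. The median level was 10.02 CPM, with a middle range of 3.49 to 24.3 CPM. Genes of 2000 to 4000 bp with at least 1 CPM had a median of 8.26 CPM. Per kb of span the order was reversed, with medians of 0.625 CPM per kb for the long genes and 2.95 for the genes of 2000 to 4000 bp. Among the long genes the median level per kb was 0.877 CPM at 10000 to under 12000 bp, 0.905 at 12000 to under 15000 bp and 0.614 at 15000 to under 20000 bp. It was 0.218 at 20000 to under 30000 bp and 0.239 above. Counts were concentrated in few of them: the 10 highest held 21.5% and the 70 highest 50.7% of all counts in long genes.

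Long genes lay more often on the C subgenome than other expressed genes did. There were 401 on C chromosomes, 296 on A chromosomes and 2 on unplaced sequences, so that 57.4% were on C, against 51.4% of all genes with at least 1 CPM and 49.4% of the matched genes described further on. They made up 1.42% of expressed genes on A and 1.80% on C. Single chromosomes overlapped between the subgenomes: the share was between 1.11% (A02) and 1.65% (A05) on A, and between 1.46% (C05) and 2.38% (C06) on C. The share on C did not rise steadily with span. It was 53.4% at 10000 to under 12000 bp, 59.2% at 12000 to under 15000 bp and 51.5% at 15000 to under 20000 bp. It was 65% of the 80 genes of 20000 to under 30000 bp and 69.2% of the 65 genes of 30000 bp and above. These shares describe the annotation and carry no test, as genes are not replicates.

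Long genes also lay farther from chromosome ends and in stretches with fewer genes. Their median distance to the nearer end was 20.4% of the chromosome length, against 15.8% for the matched genes, and 26.0% lay within the outer 10% of a chromosome, against 33.8%. For all genes with at least 1 CPM these values were 17.4% and 31.2%. By span, the median distance of long genes was 17.9% under 12000 bp and 25.7% at 30000 bp and above. Within the 1 Mb around a long gene there was a median of 148 other genes on A and 100 on C, against 162 and 115 around matched genes. The difference was thus present within each subgenome and not only between them. With span, the median number of other genes within that 1 Mb fell from 127.5 at 10000 to under 12000 bp to 97 at 30000 bp and above, beside 138 at 2000 to under 4000 bp. The medians by span join both subgenomes. As the share on C was 53.4% in the shortest and 69.2% in the longest of these classes of long genes, they do not show a trend within a subgenome. The gap to the nearest other gene had a median of 1048 bp for long genes and 926 bp for matched genes. Long genes below 1 CPM lay farther inside still, at a median of 25.4% of the chromosome length from an end and with 97 other genes within the 1 Mb.

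**Figure D1:**
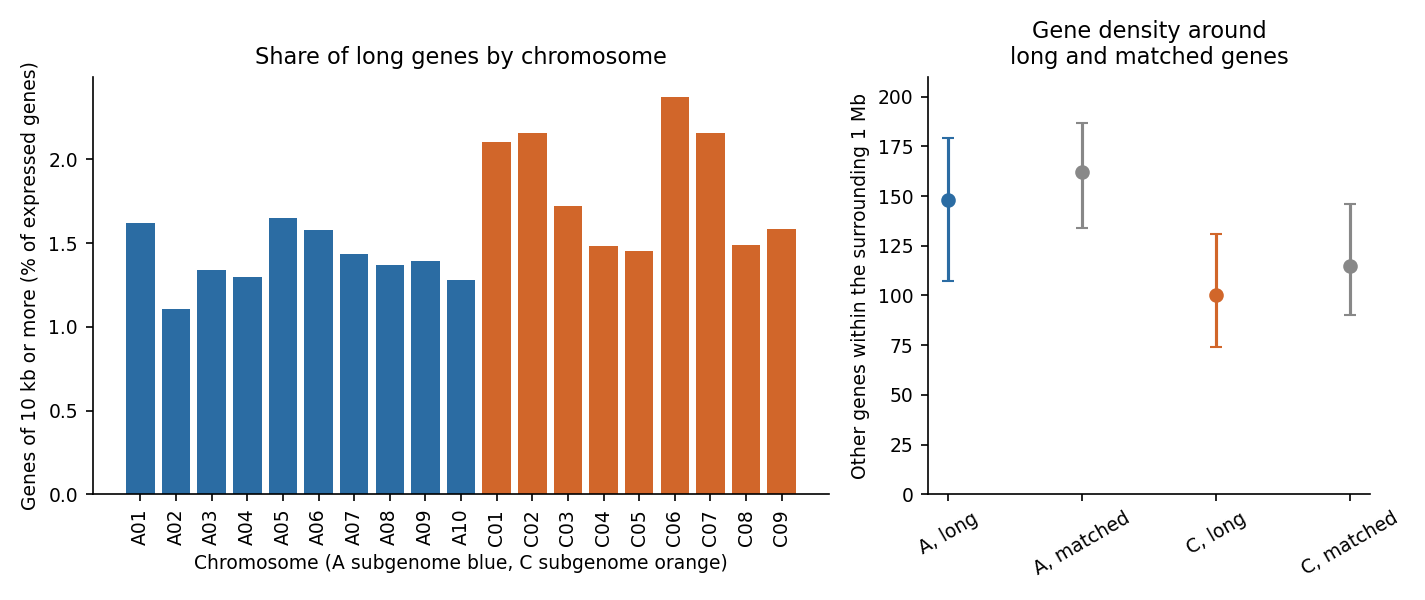
The left panel plots long genes as a percentage of genes with at least 1 CPM on each chromosome. The right panel plots the number of other genes within the surrounding 1 Mb (points are medians, bars the 25th to 75th percentile) for long and matched genes of each subgenome; the medians are 148 and 162 on A and 100 and 115 on C.

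Few long spans shared bases with another gene of the table. This was so for 19 of 699 (2.72%), of which 7 overlapped a gene on the same strand and 9 held a whole gene. The 20 matched genes that overlapped another (2.86%) did so on the opposite strand alone. Without a stated strand setting, reads in a shared stretch cannot be assigned. Among the 19, the other genes covered a median of 3.05% and at most 53.4% of the span. Of these 19, 4 were called higher and 6 lower in the mutant.

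For the comparison of genotypes, every long gene was set beside a gene of 2000 to 4000 bp with nearly the same mean CPM (699 matched genes, median 10.02 CPM and 2800 bp). All 699 long genes and all 699 matched genes were among the 56385 tested. As the rule asks for a mean level over both genotypes, 17 long genes averaged under 1 CPM in WT and 28 did so in the mutant, and these could pass only through the other genotype. Among the 654 long genes with at least 1 CPM in both genotypes, 206 were higher and 142 lower.

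In the bnsdp1 mutant, 380 of 699 long genes (54.4%) differed from WT, 217 higher and 163 lower (edgeR, adjusted p under 0.05). Over all tested genes the calls were 51.7%, with 25.5% higher and 26.2% lower, so the share of long genes called is close to the background. Higher calls were 31.0% and lower calls 23.3% of the long genes. Among all genes held to the same minimum of 1 CPM, 57.9% were called, 29.8% higher and 28.1% lower. Of the matched genes, 436 (62.4%) were called, 233 higher and 203 lower. Rises of at least 2-fold were called for 47 long genes (6.72%, background 9.23%) and falls of that size for 69 (9.87%, background 13%), beside 51 and 90 matched genes. These include long genes that reached the minimum level only through the genotype where they are high. Among the 654 with at least 1 CPM in both genotypes, 37 (5.66%) rose and 48 (7.34%) fell at least 2-fold, beside 48 and 80 of their matched genes. Among all 380 called long genes, 13 of those that rose and 27 of those that fell changed at least 4-fold. The share of all tested genes at that size was not counted, so these numbers cannot be set against a background. The long genes called higher had a median log2 fold change of 0.55, and those called lower one of -0.91. In CPM the 3 mutant values lay wholly above the WT values in 206 long genes (background 27.6%) and wholly below in 212 (background 32.8%), together 59.8% (background 60.4%). This share was 65.45% of all genes with at least 1 CPM and 69.4% of the matched genes.

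Which genes served as the comparison decided how the long genes ranked in this count. With matching on CPM per kb of span, which picks genes of lower counts, 311 of 672 tested matched genes (46.3%) were called, below the share of the long genes. The typical size of a change was slightly smaller in long genes, with a median absolute log2 fold change of 0.39 against 0.47 in genes matched by CPM and 0.48 over all tested genes. Over all genes with at least 1 CPM it was 0.44. This was not particular to the long genes, as genes of 8000 to under 10000 bp also had 0.39. The fitted spread of single genes between replicates was alike, with a median biological coefficient of variation of 0.108 for long and 0.106 for matched genes. Long genes moved together more between libraries. The median ratio to WT, given by library further on, had an SD over the WT libraries of 0.076 for long and 0.019 for matched genes. No test of the difference between long and matched genes was made.

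The direction of the calls followed the level of the gene, in long and matched genes alike. Long genes were divided by mean CPM into 4 classes of 174 or 175. Of the class with the lowest level (up to 3.48 CPM), 20 were called higher and 41 lower, and of the next class (3.49 to 10.02 CPM) 34 and 58. In the class of 10.2 to 24.4 CPM, 76 were higher and 29 lower, and in the class with the highest level (from 24.4 CPM) 87 and 35. The matched genes of these classes went from 26 higher and 66 lower to 79 higher and 38 lower. The class medians of the log2 fold change ran from -0.19 to 0.27 in long genes and from -0.27 to 0.16 in matched genes. In the lowest class fewer long genes than matched genes were called (34.9% against 52.6%), while in the highest class the shares were 70.1% and 67.2%.

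**Figure D2:**
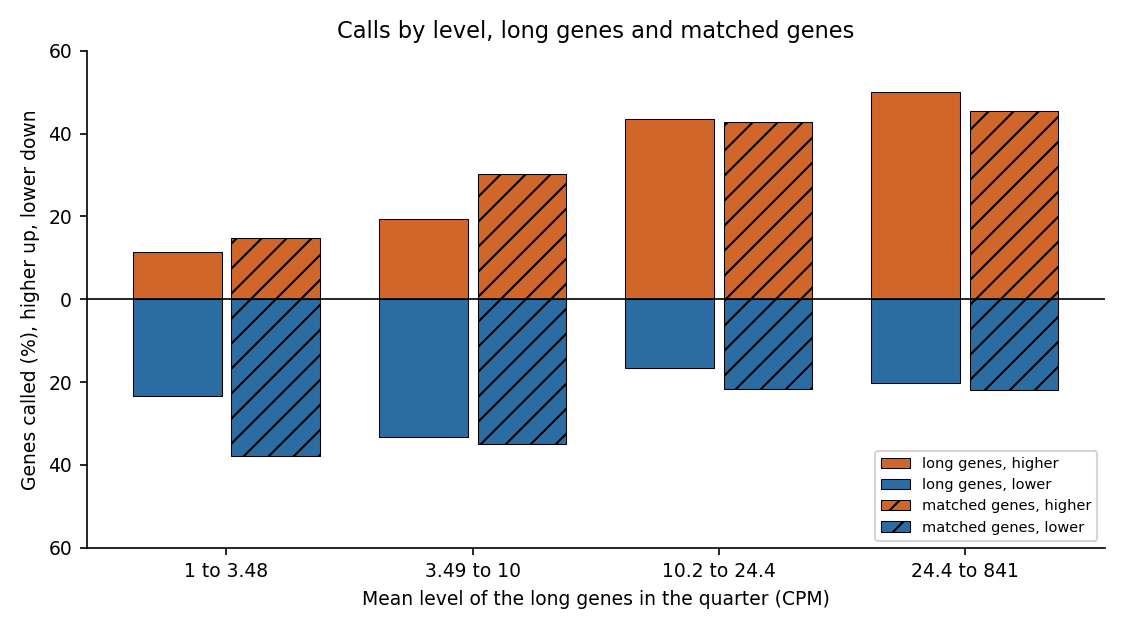
Bars give the percentage of genes called higher (upward, orange) and lower (downward, blue) in the mutant, for long genes (plain) and matched genes (hatched), in 4 classes of the long genes' mean CPM. Lower calls outnumber higher ones in the 2 classes up to 10.02 CPM and higher calls outnumber lower ones above.

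Called genes differed little in span but differed in level. Long genes called higher had a median span of 13102 bp, those called lower 13034 bp and those not called 14041 bp. Their median levels were 18.2, 7.20 and 5.65 CPM. On C chromosomes 134 long genes were higher and 100 lower, together 58.4% of 401. On A chromosomes 83 were higher and 63 lower, together 49.3% of 296. The genes matched to these lie on either subgenome, and 62.6% of them were called for the long genes on C and 62.2% for those on A. They therefore do not show whether other genes on A and C differ. The difference between the subgenomes was not tested.

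Over all expressed genes, the share called higher did not grow steadily with span. It was 26.8% at 1000 to under 2000 bp, 31.4% at 2000 to under 4000 bp, 38.7% at 6000 to under 8000 bp and 40.1% of 564 genes at 8000 to under 10000 bp. Above the 10000 bp minimum it was lower again, at 34.6% of 234 genes under 12000 bp, 29.9% of 184 under 15000 bp, 28.7% of 136 under 20000 bp, 27.5% of 80 under 30000 bp and 30.8% of 65 above. The share called lower was 22.0% at 8000 to under 10000 bp and between 20% and 24.5% in the 5 longer classes. Median levels of the classes differed as well, from 5.85 CPM at 1000 to under 2000 bp to 12.3 CPM at 8000 to under 10000 bp and 9.23 CPM just above the minimum, and their part in these shares was not tested. Just outside the minimum, the 224 genes of 9000 to under 10000 bp had a median log2 fold change of 0.16 and a median of 13.0 CPM, and just inside, the 136 genes of 10000 to under 11000 bp had 0.11 and 8.84 CPM. At the minimum level, the 24 long spans between 0.8 and 1 CPM had a median log2 fold change of 0.04, and the 22 long genes between 1 and 1.2 CPM had -0.08.

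Taken over all long genes together, the median moved between WT libraries as far as between genotypes. The fitted log2 fold changes had a median of 0.08 over the long genes, 0.03 over the matched genes and 0.02 over all tested genes. By library, the median ratio to WT relative to all tested genes was -0.03, -0.06 and 0.09 in WT replicates 1, 2 and 3, and 0.07, 0.01 and 0.10 in mutant replicates 1, 2 and 3. The mutant mean of 0.06 ± 0.04 (SD, n = 3) thus lay within the WT range, and the groups overlapped. This median joined level classes that shifted in opposite directions. From 24.4 CPM, the long genes had -0.03, -0.01 and 0.06 in WT and 0.29, 0.17 and 0.26 in the mutant. At 10.2 to 24.4 CPM, the highest WT value was 0.097 and the lowest mutant value 0.109. Up to 3.48 CPM, the lowest WT value was -0.0999 and the highest mutant value -0.103. The genotypes overlapped at 3.49 to 10.02 CPM. The median over all matched genes stayed between -0.02 and 0.02 in all 6 libraries, but their level classes moved apart. In the mutant, the matched genes of the lowest class had -0.19, -0.19 and -0.20, against 0.003, -0.07 and 0.09 in WT. Those of the highest class had 0.13, 0.17 and 0.15 in the mutant, against 0.03, 0.04 and -0.07 in WT. WT replicate 3 had the highest of the WT values in 447 of 699 long genes (64.0%), in 51.8% of matched genes and in 47.9% of all tested genes. Mutant replicate 2 had the lowest of the mutant values in 56.1% of long genes, 46.6% of matched genes and 42.2% of all tested genes.

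These library differences changed with span. From genes under 500 bp to genes of 12000 to under 15000 bp, the median went from -0.04 to 0.12 in WT replicate 3 and from 0.04 to -0.06 in WT replicate 2. In the class of 8000 to under 10000 bp, just below the long genes, the mutant values of 0.18, 0.11 and 0.16 all lay above the WT values of -0.02, -0.07 and 0.09. In each of the 5 classes of long genes, WT replicate 3 reached or passed at least 1 mutant library. RNA quality values are not in the sources used here, and the part of such differences in the shift of the long genes was not tested.

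**Figure D3:**
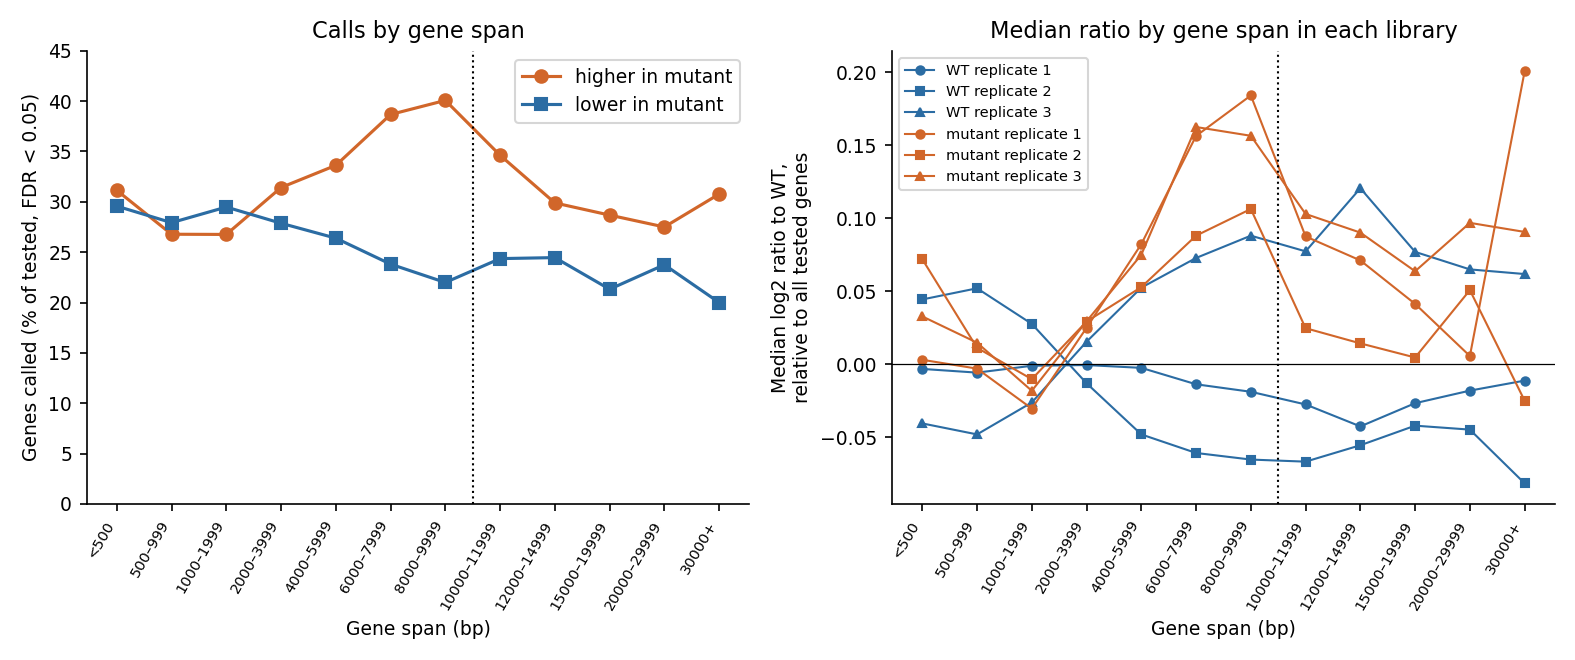
The left panel plots the percentage of genes called higher and lower in the mutant against gene span in bp, for genes with at least 1 CPM; the dotted line marks the minimum span of 10000 bp. The right panel plots, for each library, the median log2 ratio to WT relative to all tested genes; beyond the dotted line WT replicate 3 lies above at least 1 mutant library in every class.

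A larger share of counts came from long genes in the mutant, and most of the increase was due to a single gene. Long genes held 1.40%, 1.40% and 1.48% of counts in the WT libraries and 1.74%, 1.58% and 1.71% in the mutant libraries. The means were 1.43% ± 0.0483 and 1.68% ± 0.0846 (SD, n = 3), a difference of 0.251 percentage points, and the groups did not overlap. The long gene with the highest mean CPM alone went from 0.00665% ± 0.000526 to 0.162% ± 0.0200 of counts. This gene, described next, ranks first by its mutant level: in WT its 66.5 CPM lay far below the 290.3 to 470.8 CPM of the next 4. Without it the shares were 1.42% ± 0.0478 and 1.52% ± 0.0686, a difference of 0.0960 points, and mutant replicate 2 (1.44%) lay below WT replicate 3 (1.48%). The matched genes went from 1.499% ± 0.00726 to 1.61% ± 0.0193 with no overlap. Without the highest gene of each set, the mutant share was 1.07 times the WT share for long genes and 1.09 times for matched genes, whose difference was then 0.124 points. Long genes on C chromosomes held 0.771% ± 0.0290 in WT and 0.791% ± 0.0322 in the mutant, with overlap. Those on A chromosomes without the highest gene held 0.649% ± 0.0189 and 0.725% ± 0.0365, with no overlap. A rise was not particular to long genes. Genes of 6000 to under 8000 bp with at least 1 CPM held 2.88% to 3.09% of counts in WT and 3.49% to 3.77% in the mutant. At 8000 to under 10000 bp the genotypes overlapped. At 1000 to under 2000 bp the share was lower in the mutant, 29.5% to 30.7% against 32.5% to 33.35% in WT.

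**Figure D4:**
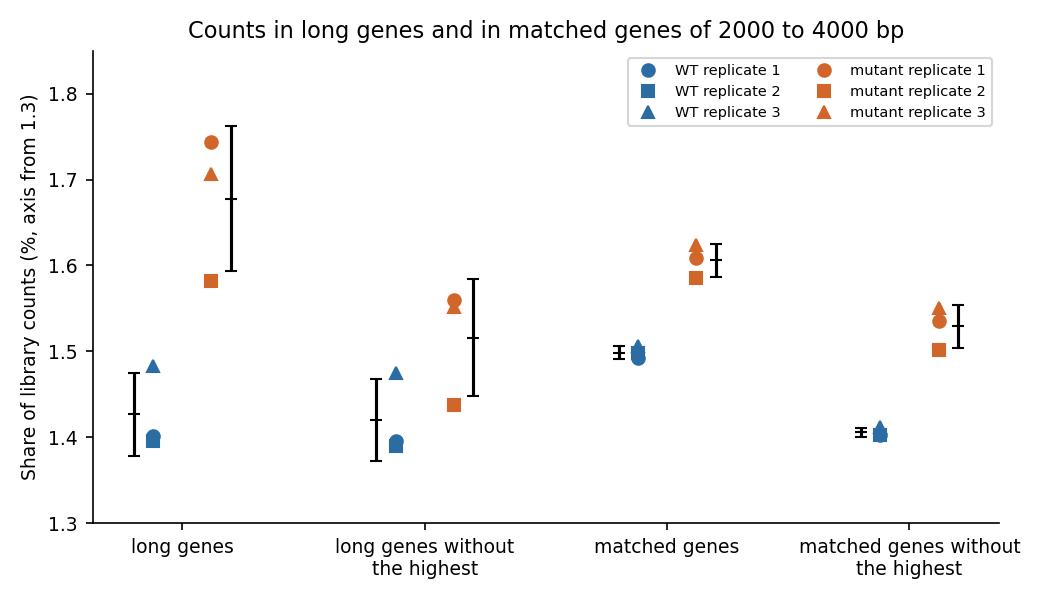
Points give the percentage of each library's counts that fell in long genes and in matched genes, with and without the gene of each set that has the highest mean CPM; bars are the mean ± SD of the 3 libraries of a genotype, and the axis starts at 1.3%. Without the highest gene, the WT and mutant libraries overlap for long genes and not for matched genes.

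The long gene with the largest rise was also the most abundant. BnaA09G0529700ZS (chromosome A09, 55784597 to 55802058, minus strand, 17462 bp) had 62.2, 64.8 and 72.4 CPM in WT replicates 1, 2 and 3 and 1840, 1454 and 1554 CPM in mutant replicates 1, 2 and 3. Every mutant library lay far above every WT library, and mutant replicate 1 was the highest. The means were 66.5 ± 5.26 and 1616 ± 200.2 CPM (SD, n = 3), and the log2 fold change was 4.64 (SE 0.126, edgeR adjusted p = 6.13e-09). By mean CPM it ranked 88 among all genes of the series, and it made up 0.465% of the counts in long genes in WT and 9.59% in the mutant.

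Another A gene rose evenly in all libraries. BnaA10G0186300ZS (chromosome A10, 21074613 to 21085046, minus strand, 10434 bp) had 25.3, 22.3 and 24.3 CPM in WT and 153.5, 144.1 and 166.9 CPM in the mutant (log2 fold change 2.73, SE 0.0895, edgeR adjusted p = 1.37e-08). Below 5 CPM some long genes had larger called rises than this. A gene on A03 (3.34 CPM) had a log2 fold change of 3.29, and another on C04 (1.18 CPM) had 2.97. With such means and rises, both lay under 1 CPM in WT and passed the minimum level only through the mutant. The other large rises among long genes with at least 5 CPM began from lower or more scattered WT levels. On chromosome C08, the gene at 50994782 to 51005400 (plus strand) had 3.03, 3.31 and 3.15 CPM in WT and 17.0, 19.4 and 19.3 CPM in the mutant (log2 fold change 2.59). On chromosome A07, the gene at 17699725 to 17713756 (plus strand) had 60.95, 57.6 and 42.5 CPM in WT and 311.2, 286.2 and 342.7 CPM in the mutant (log2 fold change 2.58). A second gene on C08, at 20807586 to 20827867 (minus strand), had 1.95, 5.02 and 2.69 CPM in WT and 21.6, 13.6 and 18.7 CPM in the mutant (log2 fold change 2.498). WT replicate 2 was the highest WT library for that gene, and still below every mutant library. These 3 had edgeR adjusted p-values of at most 6.47e-05.

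The falls given here are the largest among long genes with at least 5 CPM. Below that level the lowest log2 fold change of a called long gene was -4.62. That gene (mean 3.55 CPM) lay under 1 CPM in the mutant and passed the minimum level only through WT. BnaA09G0453400ZS (chromosome A09, 50709293 to 50723855, minus strand, 14563 bp) had 19.2, 16.4 and 24.9 CPM in WT and 1.84, 1.31 and 2.08 CPM in the mutant (log2 fold change -3.49, SE 0.186, edgeR adjusted p = 2.87e-07). BnaC03G0696700ZS (chromosome C03, 67247217 to 67259149, plus strand, 11933 bp) had 60.95, 89.9 and 123.4 CPM in WT and 5.43, 7.496 and 11.1 CPM in the mutant (log2 fold change -3.47, SE 0.293, edgeR adjusted p = 6.45e-06). WT replicate 1 was its lowest WT library and still lay far above every mutant library. On chromosome A07, the gene at 19597138 to 19612090 (plus strand) fell from 10.6 ± 0.510 to 1.56 ± 0.649 CPM (SD, n = 3, log2 fold change -2.71). On chromosome A05, the gene at 37095722 to 37107501 (minus strand) went down from 27.9 ± 1.42 CPM to 4.31 ± 0.324 CPM (log2 fold change -2.65). On chromosome A02, the gene at 33067695 to 33092991 (plus strand), with a span of 25297 bp, fell from 34.1 ± 8.92 to 5.71 ± 0.733 CPM (log2 fold change -2.53). These 3 had edgeR adjusted p-values of at most 5.80e-06. No gene names come with these identifiers in the files, and the sources used here do not give the build of the coordinates. The 10 genes were the extremes of 169 rises and 100 falls that met the same conditions on level and overlap.

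**Figure D5:**
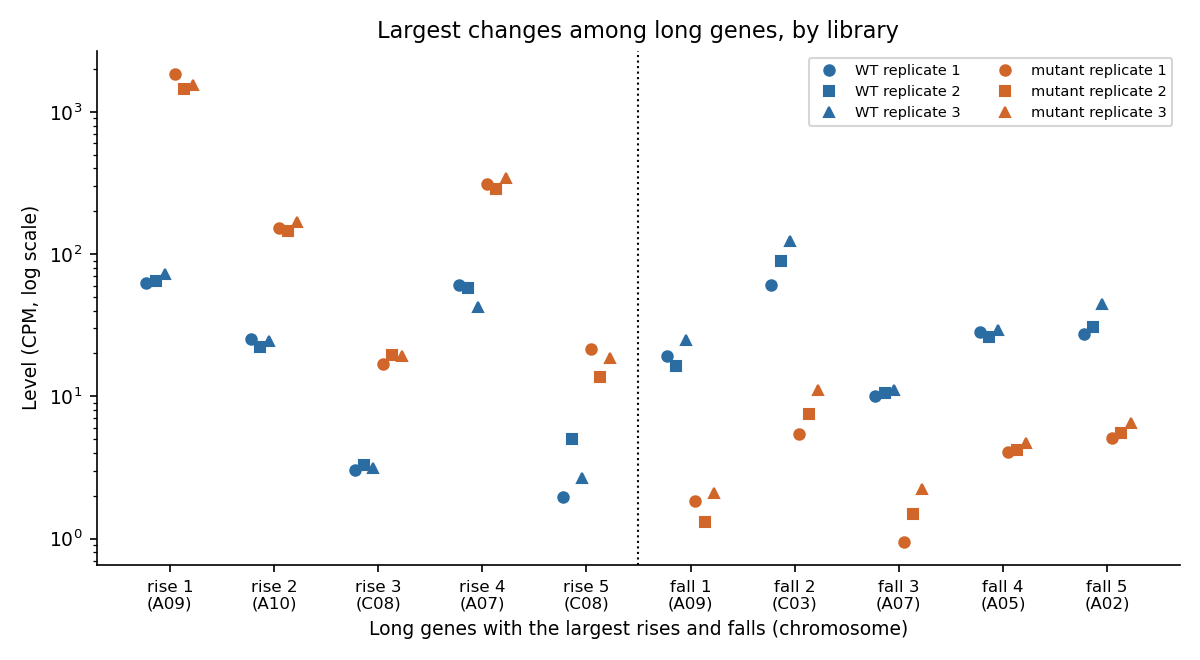
Points give the CPM of each library on a log axis for the 5 largest rises and 5 largest falls among long genes with at least 5 CPM, named by rank and chromosome. WT (blue) and mutant (orange) libraries are apart in all 10, which the rule of choice required.

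The 5 longest genes differed in how they responded. The longest, 144485 bp on chromosome C02 (60171065 to 60315549, plus strand), had 3.31, 2.33 and 2.41 CPM in WT and 9.94, 5.17 and 5.74 CPM in the mutant, and rose (log2 fold change 1.41, SE 0.242, edgeR adjusted p = 0.000769). Mutant replicate 1 stood above the other mutant libraries, and all of them stood above WT. Its level per kb of span was 0.0333 CPM. The gene of 97547 bp on C02 (29574909 to 29672455, plus strand) went from 7.74 ± 0.260 to 9.24 ± 1.06 CPM (SD, n = 3, log2 fold change 0.29, edgeR adjusted p = 0.0308), a call that was lost in 7 of 11 other fits. The gene of 82218 bp on C05 (50231251 to 50313468, minus strand) went down from 11.2 ± 1.63 CPM to 5.11 ± 0.281 CPM (log2 fold change -1.08, edgeR adjusted p = 3.54e-05), and another gene of the table covered 10.2% of its span. For the gene of 93861 bp on C05 (34483538 to 34577398, minus strand) the values were 1.39 ± 0.397 and 1.77 ± 0.332 CPM, with overlap (edgeR adjusted p = 0.236). For the gene of 91518 bp on A09 (3307642 to 3399159, plus strand) they were 63.7 ± 6.76 and 72.6 ± 5.88 CPM, also with overlap (edgeR adjusted p = 0.0906). That gene held 0.745 CPM per kb, and the other 4 held 0.0168 to 0.0990 CPM per kb.

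Apart from BnaA09G0529700ZS, the most abundant long genes changed little. The gene of 16624 bp on chromosome C06 (31065855 to 31082478, plus strand) went from 470.8 ± 10.6 to 370.6 ± 20.7 CPM (SD, n = 3, log2 fold change -0.30, edgeR adjusted p = 0.0185). The gene of 17801 bp on A07 (21260818 to 21278618, plus strand) went from 462.9 ± 14.2 to 345.9 ± 24.1 CPM (log2 fold change -0.38, edgeR adjusted p = 0.00758). Both fell without overlap, and in both mutant replicate 1 was the lowest library. The gene of 18105 bp on A08 (22845269 to 22863373, minus strand) went up from 345.6 ± 25.8 CPM to 405.0 ± 6.82 CPM (log2 fold change 0.27, edgeR adjusted p = 0.0361). The gene of 10577 bp on A02 (32345265 to 32355841, plus strand) had 290.3 ± 47.0 and 253.0 ± 21.6 CPM, with overlap (edgeR adjusted p = 0.286). Calls on the C06 and A08 genes were lost in 3 and 6 of 11 other fits.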

How the data were processed

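The authors deposited raw read counts for each gene, 1 table a library, laid out as featureCounts does per the file headers. Per the submitters' processing notes, the tools were fastp, HISAT2 and featureCounts. The sources used here do not give versions, settings, strand use, the treatment of reads with several matches or the genome build. Reads of near-identical A and C copies, and of overlapping genes, may therefore be split or left out.

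CPM is the count over the library's total count, times 1000000. Tests used edgeR 4.0.16 in R 4.3.3 (filterByExpr, TMM, glmQLFit and glmQLFTest, no covariate) on all 56385 genes that passed the filter, with Benjamini-Hochberg adjustment over all of them and an FDR threshold of 0.05. The fit was tested on simulated counts. SE is the fitted log2 fold change divided by the square root of its F. DESeq2 1.42.0 and limma 3.58.1 (voom) were alternatives.

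In order of falling mean CPM, each long gene took the nearest unused gene of 2000 to 4000 bp on the log2 CPM scale, with a largest difference of 0.020 (log2). These matches are a description and give no p-value. For a library's median, 0.5 was added to CPM and to mean WT CPM (leaving out the library itself if WT), log2 of their quotient was taken per gene, and the median over all tested genes was subtracted. Distances to a chromosome end take the end of the last gene as the far end.

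Genes given one by one were the 5 longest, the 5 with the highest mean CPM, and the 5 largest rises and falls among called genes with at least 5 CPM whose genotypes did not overlap. Gene names could not be given: a RefSeq table of 123214 genes from another assembly (Da-Ae) matched 0 identifiers, so identifiers are printed for 2 rises and 2 falls, and gene lists by pathway and the level of the SDP1 copies are not analysed here. Members, lists and tests were chosen with earlier results of these data known. The labels do not say that equal replicate numbers pair libraries.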

Additional observations from a re-analysis of the deposited data

How the results depend on the processing

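With the long genes kept as they were, the called long genes numbered 333 to 394 over 11 other fits, and 325 to 379 of them were among the 380 reported, each in the same direction. DESeq2 called 381, limma voom 393, library size alone 371, no filter on low counts 380 and the replicate block 388. For the replicate numbers, deviations of libraries with equal number had r = 0.190, -0.0435 and 0.0962, and 3 of 6 libraries correlated best with their own number, so the numbers were not taken as pairs. Leaving out single libraries gave 177 to 245 higher, 148 to 164 lower and 107 to 124 at least 2-fold long genes, 373 to 427 called matched genes, medians of 0.05 to 0.10 for long genes and 0.0038 to 0.044 for matched genes, and share differences of 0.218 to 0.299 points. The difference of medians was 0.05, with 0.09 without mutant replicate 2 and 0.02 without mutant replicate 3. The matched median was 0.03, with -0.010 under library size alone, 0.016 with no filter, 0.0038 without WT replicate 2 and 0.0047 without mutant replicate 2. The share difference was 0.0604 points without the 100 genes with the most counts, and, as alternatives chosen after seeing the data, 0.0960 without the highest long gene and 0.0863 without the 10 highest.

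Other definitions changed the number of genes and so the counts. With a minimum of 8000 bp, 730 of 1263 genes were called, 443 higher, 287 lower and 196 at least 2-fold, and 777 matched genes; the median was 0.14 for long and 0.046 for matched genes, a difference of 0.09. With 15000 bp, 142 of 281 were called, 81 higher, 61 lower and 40 at least 2-fold, and 164 matched genes; the matched median was 0.059, the difference of medians -0.0072 and the share difference 0.175 points. With at least 5 CPM, 101 of 465 were lower and 64 at least 2-fold, with medians of 0.16 and 0.13 (matched). Matching on CPM per kb gave a matched median of -0.13 and a difference of 0.21, and matching within a chromosome a matched median of 0.054. All 10 largest rises and falls kept their direction and call in the 11 fits (adjusted p at most 0.000376).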

Other observations

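Parts of A01 (up to 15 Mb), A07 (27 to 32 Mb) and C06 (46 to 51 Mb) were known from earlier results of these data to shift as blocks, so the values there are no separate evidence. They held 27 of the 699 long genes (3.86%), against 4.90% of all genes with at least 1 CPM. On A01, 7 of 16 long genes were called lower and 1 higher, and on A07 4 of 5 were lower and 1 higher. On C06, 2 of 6 were higher and 2 lower. The median log2 fold changes were -0.21 on A01, -2.17 on A07 and -0.05 on C06. Outside these parts, 213 of 672 long genes were higher and 150 lower.

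Of the 759 genes of at least 10000 bp with less than 1 CPM, 197 were tested, and 28 were called higher and 41 lower in the mutant (edgeR, adjusted p under 0.05). Together these were 35.0% of the 197, beside 51.7% of all tested genes. Of these 69 calls, 66 were at least 2-fold (33.5% of the 197, beside 22.3% of all tested genes). The 197 had a median biological coefficient of variation of 0.304, against 0.134 over all tested genes. Of the 56385 tested genes, 43416 had at least 1 CPM, so the values over all tested genes are not at a like level. Whether long spans differ from other genes under 1 CPM was not tested. Long genes seldom adjoined each other: 10 pairs of the 699 were neighbours in gene order.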
